A study of Triticum aestivum with 24 samples.

Results

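The tags of 24 nt were the longest kept in a deposited table of annotated miRNA tags from wheat leaves, and 30 of its 202 tags had this length. A tag is a distinct small RNA read sequence, and within the table membership was decided only by the number of bases in its sequence. Read counts had entered before that, since a tag had to reach an abundance minimum in at least 1 library to be listed. The members fell into 7 families. Family miR1135 held 13 of them (11 of the 5p arm and 2 of the 3p arm), miR1118 held 7 (6 and 1), miR1136 held 4 (2 and 2), miR1122 and miR1137 held 2 each (1 of each arm), and miR1131 (5p) and miR1133 (3p) held 1 each. The arm in a name is the side of the precursor hairpin to which the study assigned the tag.

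All plants were of Triticum aestivum cv Chinese Spring and descended from a single selfed individual. They grew with 16 h of light at 18 °C and 8 h of dark at 16 °C, a regime that 72 of the 144 plants (control) never left. The other 72 (heat) spent 5 days at 37 °C, well watered, from the boot stage on. Leaves were taken from every plant on the last day of stress (0 DAT, where DAT is days after treatment), at 1 DAT and at 4 DAT, which gave 6 groups of 4 small RNA libraries, each from the pooled RNA of 18 plants. A library is therefore an average over plants, and libraries of a treatment on different days come from the same plants and are not independent. In such pooled leaf samples, fewer cells that hold a tag and less of it per cell cannot be told apart. A table of miRNA tags carries no leaf marker by which the tissue label could be checked.

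In plants, small RNAs of 21 nt are mostly cut from hairpins by the Dicer enzyme DCL1 and loaded onto AGO1, where they guide cleavage or translational repression of mRNAs. Small RNAs of 24 nt are the typical product of DCL3; loaded onto AGO4, they guide DNA methylation, above all at transposons and other repeats. Some annotated miRNAs of cereals come in both lengths, and several of the families named here have been described as lying in miniature inverted-repeat transposable elements, short DNA elements whose ends are inverted copies and whose transcripts can fold into a hairpin.

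The members were not unrelated sequences. When tags that shared a run of 14 or more bases on either strand were joined, 10 of the 30 formed a single group, made of 7 tags of miR1135 5p, 1 of miR1135 3p and both tags of miR1136 3p. They are shown here because most of the heat effects described further on fell among them, with the 12 bases that all 10 share in capitals and T for U, in the orientation of the deposited table.
miR1135-1403-5p: atttccgagacaAGTAATTCCGAA
miR1135-1184-5p: tttccgagacaAGTAATTCCGAAc
miR1135-987-3p: tttctgcgacaAGTAATTCCGAAc
miR1135-1762-5p: tccgagacaAGTAATTCCGAAcag
miR1135-757-5p: tccgagacaAGTAATTCCGAAcgg
miR1135-1515-5p: tttggacgAGTAATTCCGAAcgga
miR1135-1673-5p: ccgagacaAGTAATTCCGAAcgga
miR1135-1924-5p: tcgagacaAGTAATTCCGAAcgga
miR1136-1111-3p: ccgagacaAGTAATTCCGAAcgaa
miR1136-597-3p: cgagacaAGTAATTCCGAAcggag

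The shared run began at base 13 of miR1135-1403-5p, at base 12 of miR1135-1184-5p and miR1135-987-3p, at base 10 of miR1135-1762-5p and miR1135-757-5p, at base 9 of 4 others and at base 8 of miR1136-597-3p. The 10 tags thus covered almost the same stretch with start points up to 5 bases apart and small differences in sequence. For example, miR1135-757-5p and miR1135-1762-5p share their first 22 bases. The names do not show this overlap, since 5p tags of miR1135 and 3p tags of miR1136 lie side by side. In the study's precursor list, 16 of the 30 members stand as the reverse complement of the deposited sequence, against 18 of the 171 other tags that were found there. The 7 miR1135 5p tags of the group are among the 16. The table does not show which strand was sequenced, so all statements on first bases and overlaps hold for the orientation as deposited. Of the 48 pairs of members that shared 14 or more bases, 47 did so on the same strand as deposited and 26 as listed.

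**Figure D1:**
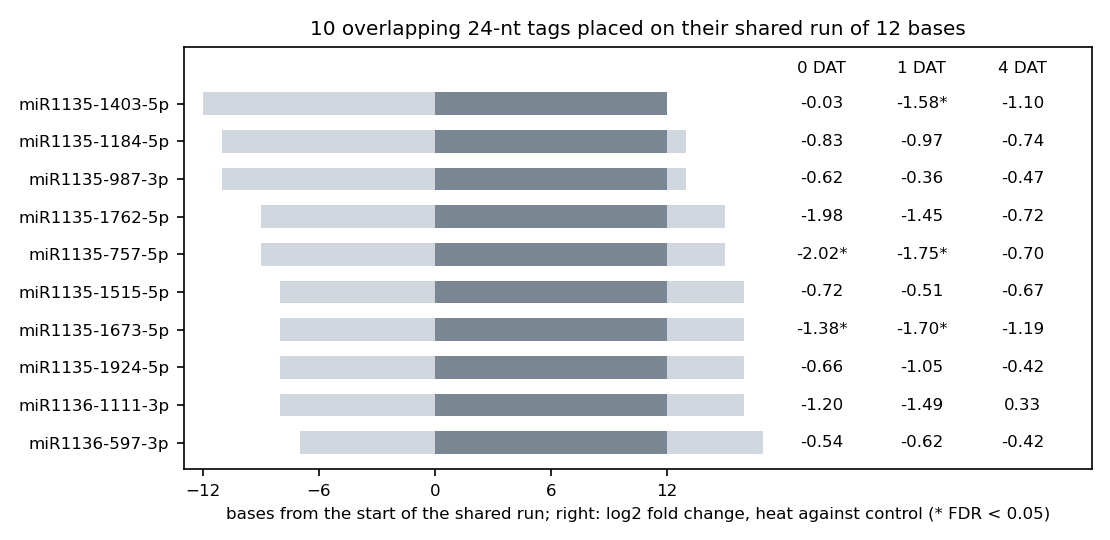
Bars place the 10 overlapping tags of 24 nt on their shared run of 12 bases (dark), with bases counted from its first base on the x axis. The columns give the log2 fold change of heat against control on each day from the edgeR fit, with an asterisk at FDR < 0.05. Of the 30 values, 29 are below 0, and 5 carry an asterisk.

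A second set of 3 tags shared 19 bases across families. They are shown, with those bases in capitals, because 1 of them was lower in heat on both days on which any member was called and the others were not.
miR1122-1462-3p: ACTTGTCTTGGATTTGTCTagata
miR1135-1616-5p: aaattACTTGTCTTGGATTTGTCT
miR1135-1969-5p: gaattACTTGTCTTGGATTTGTCT

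The remaining tags with a called change, and the most abundant tag of each family without one, are given with their seed (bases 2 to 8) in capitals.
miR1135-272-5p: gTTCCAAAttactcgtcgcagaaa
miR1118-173.a-5p: tTTCGAGAtctaactttgaccatt
miR1131-281-5p: cACGAACCggtactaatgagcgcc
miR1133-6-3p: aAGACAAGaattttgggacggagg
miR1137-310-5p: aAATAGATgacccaactttgtact

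The 30 members had 22 different seeds as deposited, of which 7 were shared by 2 or more tags, 15 tags in all. The seed CGAGACA was that of miR1135-1673-5p, miR1135-1924-5p and miR1136-1111-3p, and CCGAGAC that of miR1135-757-5p and miR1135-1762-5p. Tags miR1136-1037-5p and miR1136-390-5p differed by 1 base (A17G, counted from the first base of the former), and both tags of miR1118-173 overlapped by 17 bases on opposite strands as deposited.

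For each tag the study lists 1 precursor locus in IWGSC RefSeq v1.0 as the best match. The precursors of miR1135-757-5p and miR1136-597-3p are shown with the tag as the study lists it in capitals. They were chosen because the tag lies on the 5p arm of the first and on the 3p arm of the second. The capitals of the first hold the reverse complement of the shared run, and those of the second hold the run as deposited. The first lies at chr3B:675561619-675561749 on the minus strand and has 131 bases. The second lies at chr5B:4826806-4826910 on the minus strand and has 105 bases. A tag that matches several loci cannot be assigned to any of them. Both tags are of this kind: among the precursors listed for the members, miR1135-757-5p occurred in 4 and miR1136-597-3p in 6. Annotated genes around these loci were not analysed here.
precursor of miR1135-757-5p: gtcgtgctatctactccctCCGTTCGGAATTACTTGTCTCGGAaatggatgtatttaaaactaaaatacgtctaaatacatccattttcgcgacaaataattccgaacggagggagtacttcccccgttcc
precursor of miR1136-597-3p: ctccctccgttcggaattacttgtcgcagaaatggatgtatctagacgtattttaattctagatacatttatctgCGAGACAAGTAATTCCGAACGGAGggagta

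Precursors of the members were 92 to 326 bases long. Laid without gaps anywhere on the rest of its precursor, a member had 0 to 6 mismatches with its best complement (median 3). For 2 members, miR1118-630-5p and miR1133-6-3p, there were none. The letters CTCCCTCC, which stand near the start of the precursor of miR1135-757-5p and open that of miR1136-597-3p, were searched on both strands. They occurred in the precursors of 26 of the 30 members (86.7%), of 42 of 54 other tags of the same families (77.8%), of 78 of all 201 tags with a listed precursor (38.8%) and of 10 of 117 tags outside these families (8.55%). As deposited, 13 members began with A, 10 with T, 5 with C and 2 with G, whereas the 48 tags of 21 nt of the same families began with A in 9, T in 25, C in 13 and G in 1. In the listed orientation A opened 9 members and T 11. The G+C share of the members ranged from 25 to 58.3% (median 41.7%), against a median of 40.5% in the 21-nt tags of the same families.

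The members took a small part of the reads in the 202 tags. Library totals over the 202 tags ranged from 58501 to 300261 reads, of which 159 to 1558 fell in 24-nt tags, 16419 in all. They ranged from 58501 to 208454 in control and from 68947 to 123731 in heat at 0 DAT, from 72458 to 225459 and from 127692 to 157709 at 1 DAT, and from 81830 to 268855 and from 115904 to 300261 at 4 DAT. Levels are given as RPM, which scale the reads to a common library total after TMM scaling (a factor for each library chosen so that most tags keep the same level). How well tags of different sequence were captured was not measured, so rankings between members are rankings of reads. Mean counts of the members ran from 7.04 reads per library (miR1135-1762-5p) to 116 (miR1135-1184-5p), so single values carry large counting errors, and 3 reads, the limit that a count of 0 allows, correspond to 9.99 to 51.3 RPM before scaling, depending on the library. Only miR1135-1762-5p, miR1135-2439-5p and miR1135-987-3p were at 0 in a library, 1 library each.

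At 0 DAT the share of reads in 24-nt tags was 0.588, 0.487, 0.783 and 0.531% in control (replicates 1 to 4, the order used throughout) and 0.231, 0.558, 0.462 and 0.570% in heat. At 1 DAT it was 0.375, 0.785, 1.27 and 0.289% in control and 0.308, 0.597, 0.240 and 0.342% in heat. At 4 DAT it was 0.541, 0.380, 0.513 and 0.845% in control and 0.351, 0.217, 0.370 and 0.450% in heat. The group means were 0.597 ± 0.131 and 0.455 ± 0.157% at 0 DAT, 0.679 ± 0.448 and 0.372 ± 0.156% at 1 DAT, and 0.570 ± 0.196 and 0.347 ± 0.0966% at 4 DAT (SD, n = 4), and the libraries of heat and control overlapped on each day. Heat 0 DAT replicate 1, with the fewest reads in 24-nt tags (159), lay farthest from the mean of its own group. So did control 1 DAT replicate 3, with the highest share of the table. Control 1 DAT replicate 4 (0.289%, group mean 0.679%) lay farther from its mean than heat 0 DAT replicate 1 (0.231%, group mean 0.455%). The libraries called below those that stood apart are heat 0 DAT replicate 1 and control 1 DAT replicate 3, picked after the values were seen. Without these libraries the mean share was 0.530 ± 0.0591% in heat at 0 DAT and 0.483 ± 0.265% in control at 1 DAT (SD, n = 3). The reads carry no molecular identifiers and are not independent molecules, so the intervals plotted for these shares cover counting error alone.

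**Figure D2:**
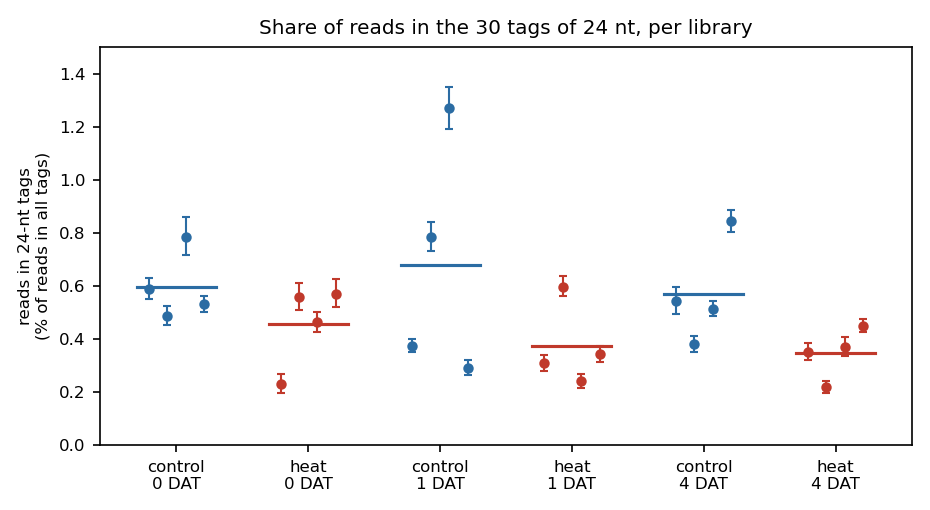
Points show the percentage of each library's reads that fell in the 30 tags of 24 nt (y axis) for the 6 groups (x axis; control blue, heat red), with 95% Wilson intervals that cover counting error only, and lines show group means. Control 1 DAT replicate 3 is highest at 1.27%, and the means of heat lie below those of control on each day while the libraries overlap.

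At the end of the stress, 3 of the 30 members were lower in heat than in control, no member was higher and the other 27 were not called (edgeR's quasi-likelihood test, Benjamini-Hochberg adjustment over the 202 tags, FDR < 0.05). Among all 202 tags, 8.42% were called lower and 8.91% higher on that day, so the share of members called lower, 3 of 30, was near the background. At 1 DAT, 5 members were lower and none was higher, against a background of 4.95% lower and 6.44% higher. At 4 DAT no member was called by edgeR, by its likelihood-ratio test or by DESeq2, and 5 had an unadjusted p under 0.05. In the main test no tag of the table was called on that day (background 0% lower and 0% higher). The 3 members called at 0 DAT were all among the 5 called at 1 DAT.

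Fold changes were below 0 for 26 of the 30 members at 0 DAT, for 30 at 1 DAT and for 27 at 4 DAT, against 51.5, 58.4 and 54.0% of all tags. Without scaling factors the number at 0 DAT was 18, with the library totals given by the study it was 23 at 1 DAT, and without both libraries that stood apart it was 22 at 0 DAT and 28 at 1 DAT. The median log2 fold changes of the members were -0.29, -0.52 and -0.46, and those of all tags -0.04, -0.12 and -0.06. Without both libraries the medians of the members were -0.27 at 0 DAT and -0.32 at 1 DAT. The 55 tags of other lengths in the same families had medians of 0.18, 0.27 and 0.18, with 7 higher and 3 lower at 0 DAT, 6 higher and 1 lower at 1 DAT and none called at 4 DAT. By length, medians at 0, 1 and 4 DAT were 1.28, 0.29 and 0.43 for 17 tags of 18 or 19 nt, 0.16, -0.07 and -0.02 for 21 of 20 nt, and 0.01, 0.00 and 0.10 for 116 of 21 nt. The 18 tags of 22 or 23 nt, nearest in length to the members, had medians of 0.11, -0.20 and -0.06, with 38.9, 66.7 and 66.7% of them below 0. These medians describe the lists, whose tags overlap in sequence and come from the same libraries, and the difference between lengths was not tested. All lists hold only tags that reached an abundance minimum in at least 1 library. A tag that did so only in control libraries leans towards fold changes below 0 by that choice. How many members did so was not counted, and the limit holds for all counts of sign and separation given here.

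**Figure D3:**
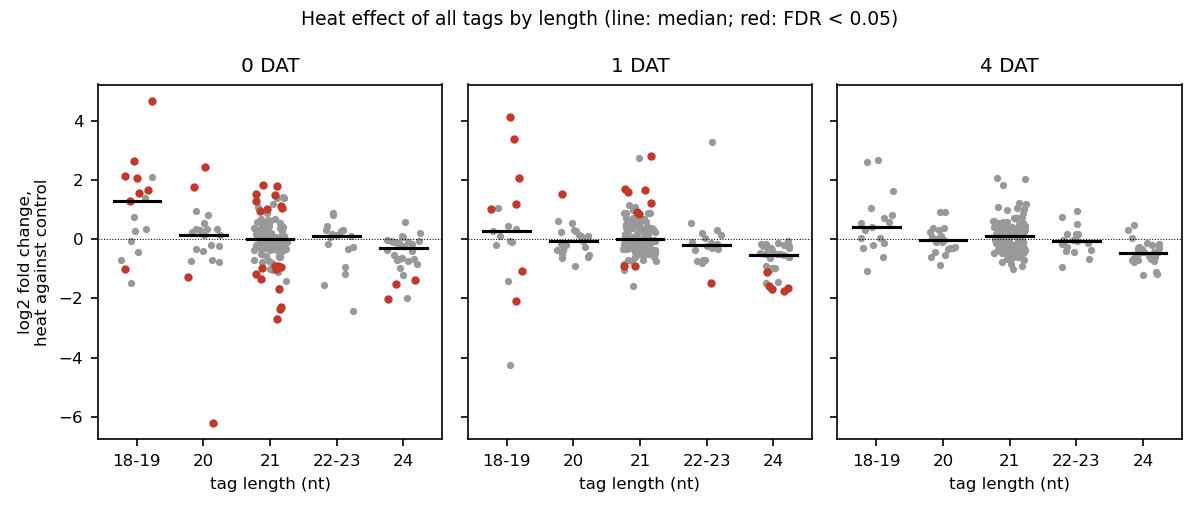
Each point is 1 of the 202 tags, placed by its length in nt (x axis) and its log2 fold change of heat against control (y axis), with a panel for each day, black lines at the medians and red points at FDR < 0.05. At 24 nt the medians lie at -0.29, -0.52 and -0.46 and all red points are below 0.

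Complete separation of the libraries was counted apart from the test. Every heat library lay below every control library for 5 members at 0 DAT, 2 at 1 DAT and 6 at 4 DAT, and for no member did every heat library lie above. Among all tags, such a separation downward was found in 12.4, 2.48 and 5.45%. Summed over the members, the level at 0 DAT came to 5795 ± 1170.3 RPM in control and 3986 ± 896 RPM in heat, 5764 ± 2443 and 3341 ± 670.2 RPM at 1 DAT, and 5894 ± 1324 and 4117 ± 744 RPM at 4 DAT (SD, n = 4). Without heat replicate 1 the heat sum at 0 DAT averaged 4428 ± 179 RPM, and without control replicate 3 the control sum at 1 DAT averaged 4692 ± 1433 RPM (SD, n = 3).

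**Figure D4:**
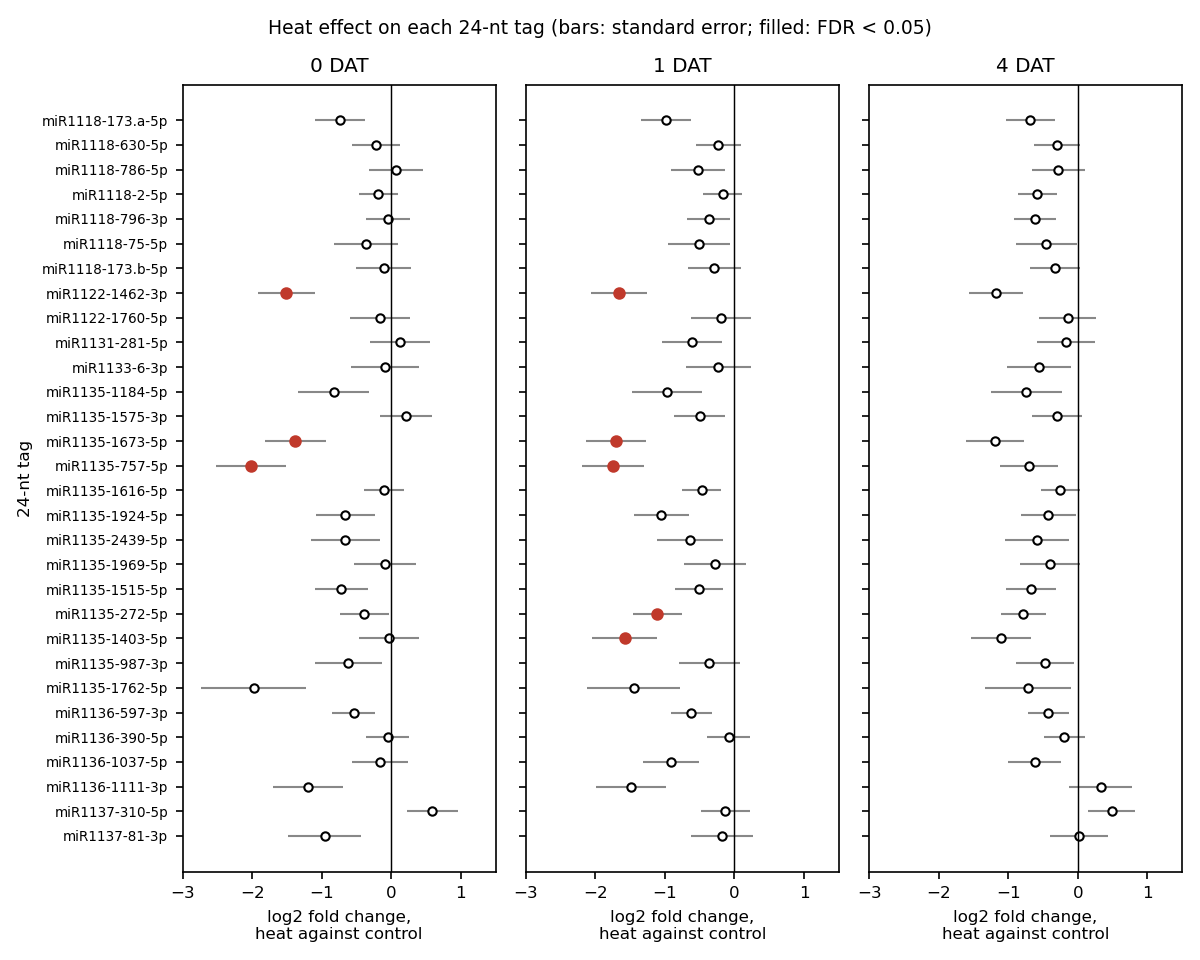
Points give the log2 fold change of heat against control (x axis) of each of the 30 tags of 24 nt (y axis, grouped by family) at 0, 1 and 4 DAT, bars 1 standard error of the edgeR fit, and filled red points FDR < 0.05. The 3 filled points at 0 DAT and the 5 at 1 DAT are all below 0, and none is filled at 4 DAT.

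Most calls were in the 5p arm of miR1135, a family annotated in wheat. The small RNA counts used here do not cover its mRNA targets. Of its 11 members, 2 were lower at 0 DAT, 4 at 1 DAT and none at 4 DAT, against 8.42, 4.95 and 0% of all tags. In the main test all 11 had fold changes below 0 on each of the 3 days, while at 0 DAT 8 did without scaling factors, 10 with RLE factors or DESeq2 and 9 to 11 when 1 library of that day was left out. The main test gave medians of -0.66, -1.05 and -0.70. The 2 members of the 3p arm were not called, with medians of -0.20, -0.43 and -0.38. Levels summed over the 13 tags at 0 DAT were 2966 ± 646 RPM in control and 1805 ± 539 RPM in heat, 3006 ± 1502 and 1523 ± 538 at 1 DAT, and 2894 ± 782 and 1819.6 ± 643 at 4 DAT (SD, n = 4). Without the libraries that stood apart, heat at 0 DAT averaged 2066 ± 161 RPM and control at 1 DAT 2351 ± 901 RPM (SD, n = 3).

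The largest change among the members was that of miR1135-757-5p. Its levels at 0 DAT were 220.1, 134, 271 and 258 RPM in control and 50.2, 45.4, 52.2 and 65.5 RPM in heat. No library of one treatment reached those of the other, and heat was 4.05-fold lower (log2 fold change -2.02 ± 0.5, edgeR FDR = 0.00765), from 3 to 7 reads per heat library. On the next day it stood at 165, 254, 411 and 64.5 RPM in control and 53.1, 107, 39.1 and 47.9 RPM in heat, where control replicate 4 lay within the heat range (log2 fold change -1.75 ± 0.45, edgeR FDR = 0.0175). At 4 DAT the levels were 123, 149, 190.1 and 299 RPM in control and 111, 50.9, 105 and 192 RPM in heat, and the groups overlapped (log2 fold change -0.70 ± 0.42, edgeR FDR = 0.437).

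Tag miR1135-1673-5p overlaps miR1135-757-5p in sequence. It was at 394, 256, 377 and 354 RPM in control and 100.4, 109, 157 and 153 RPM in heat at 0 DAT, with a gap between the groups (log2 fold change -1.38 ± 0.44, edgeR FDR = 0.0281). At 1 DAT it had 225, 413, 538 and 185 RPM in control and 22.8, 205, 54.7 and 112 RPM in heat, and heat replicate 2 reached into the control range (log2 fold change -1.70 ± 0.43, edgeR FDR = 0.0175). At 4 DAT every heat library was again below every control library, with 319, 232, 355 and 334 RPM in control and 87.04, 84.8, 134 and 218 RPM in heat, although the test was not passed (log2 fold change -1.19 ± 0.42, edgeR FDR = 0.284). The call at 0 DAT was lost in 7 of the 8 fits without 1 library of that day, only the fit without control replicate 2 keeping it, with FDR up to 0.168 over all alternatives.

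Tag miR1135-1403-5p, whose shared run lies nearest its 3′ end, was called at 1 DAT only. Its levels there were 60.3, 111, 176 and 80.6 RPM in control and 15.2, 57.8, 23.4 and 31.96 RPM in heat, all heat libraries below all control libraries (log2 fold change -1.58 ± 0.47, edgeR FDR = 0.0341). At 0 DAT it was at 100.05, 95.9, 121 and 101 RPM in control and 201, 72.6, 89.4 and 65.5 RPM in heat, with heat replicate 1 above every other library of that day (log2 fold change -0.03 ± 0.43, edgeR FDR = 0.979). Without that library the log2 fold change was -0.42 (edgeR FDR = 0.682). At 4 DAT it was at 85.9, 58.03, 161 and 155 RPM in control and 55.4, 25.4, 57.5 and 75.1 RPM in heat (log2 fold change -1.10 ± 0.43, edgeR FDR = 0.331). The call rested on 2 to 13 reads per heat library and was lost in 5 of the 8 fits without 1 library of that day. The change of its heat effect between 0 and 1 DAT was not called, as for all members.

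The most abundant member, miR1135-1184-5p, held 17.0% of all reads in the members and was not called on any day. At 0 DAT it stood at 994, 645, 1191 and 1403 RPM in control and 201, 726, 634 and 797 RPM in heat (log2 fold change -0.83 ± 0.51, edgeR FDR = 0.326). The values at 1 DAT were 686, 1143, 1878 and 443 RPM in control and 175, 898, 453 and 575 RPM in heat (log2 fold change -0.97 ± 0.51, edgeR FDR = 0.275), and at 4 DAT at 957, 539, 884 and 1506 RPM in control and 451, 178, 604 and 1074 RPM in heat (log2 fold change -0.74 ± 0.51, edgeR FDR = 0.493). Its values ranged several-fold within a group, and heat 0 DAT replicate 1, 1 of the libraries that stood apart, was the lowest of that day. Without both such libraries its log2 fold change was -0.56 at 0 DAT and -0.52 at 1 DAT (edgeR FDR of 0.598 and 0.675). It passed the test of the 3 days together only with the replicate number as a block (edgeR FDR = 0.0342, against 0.187 without).

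Outside the overlapping group, miR1135-272-5p was the miR1135 tag with a call. At 1 DAT its levels were 121, 111, 215 and 88.7 RPM in control and 98.7, 57.8, 31.3 and 55.9 RPM in heat, with heat replicate 1 above control replicate 4 (log2 fold change -1.11 ± 0.35, edgeR FDR = 0.0461). At 0 DAT it was at 153, 89.5, 106 and 135 RPM in control and 50.2, 90.8, 119 and 98.3 RPM in heat (log2 fold change -0.39 ± 0.35, edgeR FDR = 0.552), and at 4 DAT at 135, 207, 161 and 129.6 RPM in control and 55.4, 110.2, 115 and 90.1 RPM in heat, where the groups did not overlap but the test was not passed (log2 fold change -0.78 ± 0.33, edgeR FDR = 0.373). Its call was the least firm, kept in 1 of the 10 other ways of fitting or choosing libraries and in 2 of 8 fits that left out 1 library of that day. With the replicate number as a block, it did not pass (log2 fold change -1.07, edgeR FDR = 0.0772). The 6 other 5p members of the family, with mean levels of 47.9 to 143 RPM, had log2 fold changes of -1.98 to -0.09 at 0 DAT, -1.45 to -0.28 at 1 DAT and -0.72 to -0.25 at 4 DAT, none below an edgeR FDR of 0.0752. The value of -1.98 belonged to miR1135-1762-5p, which shares 22 bases with miR1135-757-5p and rested there on 7 reads in all heat libraries and 42 in control. The 3p members miR1135-1575-3p and miR1135-987-3p lay between -0.62 and 0.21 on the 3 days.

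**Figure D5:**
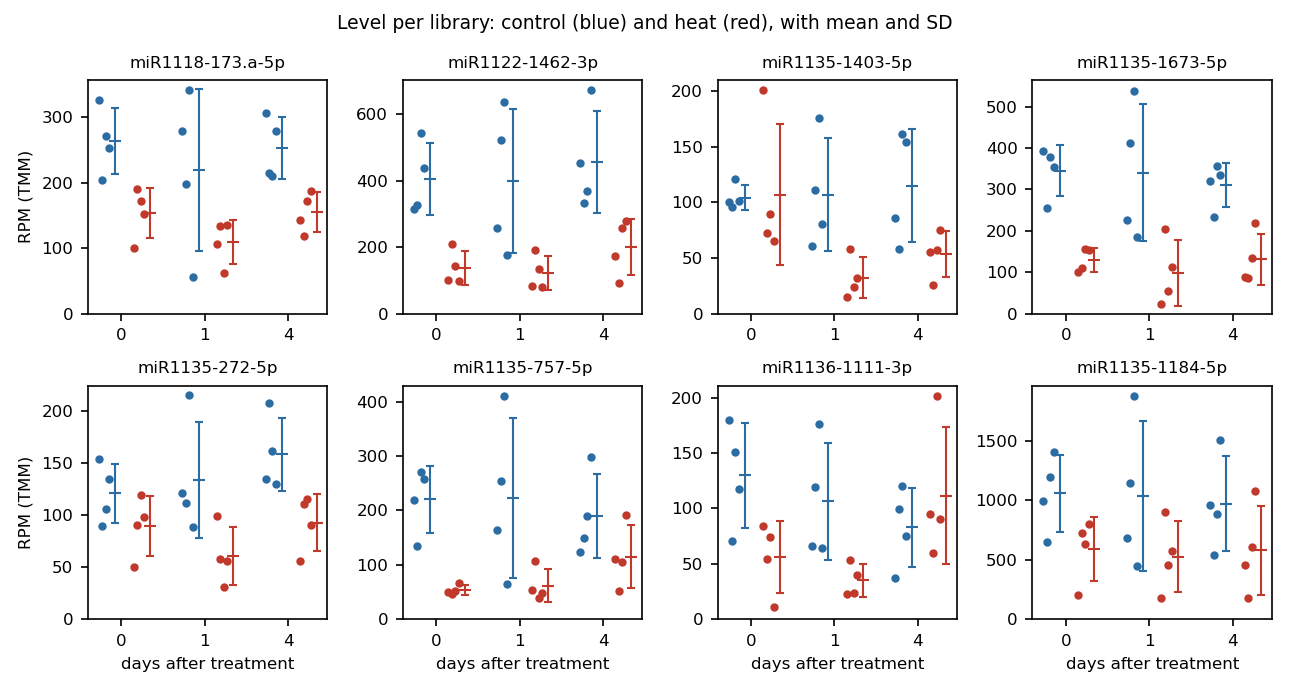
Points are TMM-scaled RPM (y axis) in each library of control (blue) and heat (red) by days after treatment (x axis) for the 7 members with a call in any test and for miR1135-1184-5p, the most abundant, with mean and SD (n = 4) beside them. For miR1135-757-5p the 4 heat libraries at 0 DAT lie between 45.4 and 65.5 RPM, below the lowest control library at 134 RPM.

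Family miR1136 shared the overlapping group through its 3p arm. Tag miR1136-1111-3p, which has the same seed as miR1135-1673-5p, was called only in the test of the 3 days together (edgeR FDR = 0.0336). At 1 DAT it was at 65.8, 119, 176 and 64.5 RPM in control and 22.8, 53.4, 23.4 and 39.95 RPM in heat, all heat libraries below all control libraries, but just short of the threshold (log2 fold change -1.49 ± 0.5, edgeR FDR = 0.0516). At 0 DAT its levels were 180.1, 70.3, 151 and 118 RPM in control and 83.7, 54.5, 74.5 and 10.9 RPM in heat (log2 fold change -1.20 ± 0.5, edgeR FDR = 0.108). At 4 DAT it was at 36.8, 99.5, 119.8 and 74.8 RPM in control and 94.95, 59.4, 201 and 90.1 RPM in heat, in the main test the only tag of the overlapping group with a fold change above 0 on any day (log2 fold change 0.33 ± 0.45, edgeR FDR = 0.746). With the replicate number as a block, its 1 DAT call passed (log2 fold change -1.51, edgeR FDR = 0.0405). It also passed at 1 DAT with edgeR's likelihood-ratio test (log2 fold change -1.49, FDR = 0.0253). The same held without control replicate 1, control replicate 4 or heat replicate 2 of 1 DAT (edgeR FDR of 0.049, 0.0415 and 0.0422).

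The other 3p tag, miR1136-597-3p, was the most abundant of its family and was not called. Its levels were 300.1, 249, 271 and 202 RPM in control and 167, 127, 276 and 120.1 RPM in heat at 0 DAT (log2 fold change -0.54 ± 0.31, edgeR FDR = 0.269). They were 252, 198, 333 and 137 RPM in control and 106, 151, 141 and 199.8 RPM in heat at 1 DAT (log2 fold change -0.62 ± 0.3, edgeR FDR = 0.21) and 184, 232, 264 and 334 RPM in control and 158, 195, 173 and 233 RPM in heat at 4 DAT (log2 fold change -0.42 ± 0.29, edgeR FDR = 0.493), with overlap on each day. The 5p tags of miR1136, which lie outside the group and differ by 1 base, had log2 fold changes of -0.16 and -0.05 at 0 DAT. At 1 DAT miR1136-1037-5p was at -0.91 ± 0.4 (edgeR FDR = 0.16) and miR1136-390-5p at -0.08 ± 0.31 (FDR = 0.882), and a difference between them was not tested.

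Taking the overlapping group as a whole, 2 of its 10 tags were lower at 0 DAT, 3 at 1 DAT and none at 4 DAT, against 8.42, 4.95 and 0% of all tags, with median log2 fold changes of -0.77, -1.25 and -0.69. The 20 members outside it had 1, 2 and none called lower and medians of -0.14, -0.42 and -0.37. The table also holds 6 tags of other lengths that carry the shared run on either strand. Their medians were 0.02, -0.18 and -0.23, and 1 of them was lower at 0 DAT and none on the later days.

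In family miR1122, miR1122-1462-3p was the second most abundant member and lower on both days. At 0 DAT it had 313, 326, 543 and 438 RPM in control and 100.4, 209, 142 and 98.3 RPM in heat, without overlap, a 2.84-fold difference (log2 fold change -1.51 ± 0.41, edgeR FDR = 0.0119). At 1 DAT it had 258, 524, 636 and 177 RPM in control and 83.5, 191, 133 and 79.9 RPM in heat, where control replicate 4 fell just below heat replicate 2, a 3.15-fold difference (log2 fold change -1.66 ± 0.4, edgeR FDR = 0.0175). At 4 DAT it had 454, 332, 368 and 673 RPM in control and 174, 93.3, 259 and 278 RPM in heat, again without overlap, but the test was not passed (log2 fold change -1.17 ± 0.39, edgeR FDR = 0.235). Tags miR1135-1616-5p and miR1135-1969-5p, which share 19 of its bases, were at log2 fold changes of -0.10 ± 0.29 and -0.09 ± 0.45 at 0 DAT and -0.47 ± 0.28 and -0.28 ± 0.45 at 1 DAT, neither called (edgeR FDR of 0.876, 0.944, 0.361 and 0.727). The family's 5p tag, miR1122-1760-5p, lay between -0.19 and -0.14 on the 3 days.

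Family miR1118 had 7 members and no call on a single day, with median log2 fold changes of -0.19, -0.37 and -0.45. Its most abundant tag, miR1118-173.a-5p, passed the test of the 3 days together (edgeR FDR = 0.032) but not with the replicate number as a block (FDR = 0.0916). At 0 DAT it was at 327, 204, 271 and 253 RPM in control and 100.4, 191, 171 and 153 RPM in heat, without overlap (log2 fold change -0.74 ± 0.36, edgeR FDR = 0.179). Its levels at 1 DAT were 279.8, 198, 342 and 56.4 RPM in control and 106, 133, 62.5 and 136 RPM in heat, with control replicate 4 below all heat libraries (log2 fold change -0.98 ± 0.36, edgeR FDR = 0.0784). At 4 DAT the groups did not overlap, with 307, 216, 211 and 279 RPM in control and 142, 119, 173 and 188 RPM in heat (log2 fold change -0.68 ± 0.35, edgeR FDR = 0.391). The 5 other 5p members, at mean levels of 86.8 to 171 RPM, had log2 fold changes of -0.37 to 0.07, -0.52 to -0.17 and -0.58 to -0.28, and the 3p member miR1118-796-3p of -0.05, -0.37 and -0.61.

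Families miR1131, miR1133 and miR1137 had no called member. Tag miR1131-281-5p stood at 260.1, 153, 362 and 168 RPM in control and 184, 327, 171 and 306 RPM in heat at 0 DAT (log2 fold change 0.12 ± 0.43, edgeR FDR = 0.898). It stood at 208, 326, 411 and 72.5 RPM in control and 152, 213, 125 and 159.8 RPM in heat at 1 DAT (log2 fold change -0.61 ± 0.43, edgeR FDR = 0.463) and at 98.2, 232, 248 and 359 RPM in control and 269, 212, 86.3 and 274 RPM in heat at 4 DAT (log2 fold change -0.17 ± 0.42, edgeR FDR = 0.836). Its libraries overlapped on each day.

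For miR1133-6-3p, the levels were 93.4, 63.9, 166 and 163 RPM in control and 16.7, 127, 52.2 and 240.2 RPM in heat at 0 DAT (log2 fold change -0.09 ± 0.49, edgeR FDR = 0.947), the lowest of them from 1 read. They were 154, 87.3, 147 and 88.7 RPM in control and 167, 84.5, 93.8 and 63.9 RPM in heat at 1 DAT (log2 fold change -0.23 ± 0.47, edgeR FDR = 0.776) and 85.9, 108, 116 and 234 RPM in control and 135, 110.2, 67.1 and 71.4 RPM in heat at 4 DAT (log2 fold change -0.56 ± 0.46, edgeR FDR = 0.579). Again the groups overlapped on each day.

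Tag miR1137-310-5p was the member with the highest fold changes at 0 and 4 DAT. At 0 DAT it had 120.1, 57.5, 151 and 112 RPM in control and 50.2, 145, 224 and 197 RPM in heat (log2 fold change 0.59 ± 0.37, edgeR FDR = 0.338). It had 170.1, 95.3, 186 and 121 RPM in control and 137, 111, 85.98 and 192 RPM in heat at 1 DAT (log2 fold change -0.13 ± 0.35, edgeR FDR = 0.839), and at 4 DAT 135, 133, 174 and 105 RPM in control and 269, 153, 144 and 203 RPM in heat (log2 fold change 0.49 ± 0.34, edgeR FDR = 0.493). The groups overlapped on each day. Its family's 3p tag, miR1137-81-3p, was at -0.96, -0.18 and 0.02, not called.

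The table holds 3 pairs of a 24-nt and a 21-nt tag in which the shorter tag is the first 21 bases of the longer. As deposited, both thus begin at the same base and differ at the 3′ end. Tag miR1135-1673-5p was set against the 21-nt miR1136-1752-3p. The study lists miR1135-1673-5p as the reverse complement and on the 5p arm of another family, so a common start in 1 precursor was not shown. The mean log2 ratio of 24-nt to 21-nt reads amounted to -0.11 ± 0.14 in control and -1.80 ± 0.53 in heat at 0 DAT, 0.12 ± 0.39 and -2.20 ± 0.56 at 1 DAT, and -0.13 ± 0.36 and -1.60 ± 0.90 at 4 DAT (SD, n = 4). The exact two-sided permutation test gave p = 0.0286 on each day, the smallest that 4 against 4 libraries allow. After adjustment over the 9 tests it was 0.0644, so none passed. Even at the smallest p on each day, a single pair could not pass this adjustment, so the lack of a call decides nothing. The 21-nt tag itself had log2 fold changes of 0.42, 0.41 and 0.41, each ± 0.46, none called (edgeR FDR of 0.643 to 0.675).

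Against the same 21-nt tag, the log2 ratio of miR1136-1111-3p in heat minus that in control was -1.62 at 0 DAT, -1.79 at 1 DAT and 0.22 at 4 DAT (exact permutation p of 0.0857, 0.0286 and 0.771, adjusted 0.129, 0.0644 and 0.771). The pair of miR1135-987-3p and the 21-nt miR1135-1190-3p differed by -0.69, -0.76 and -0.91 (exact permutation p of 0.6, 0.0571 and 0.286, adjusted 0.675, 0.103 and 0.368). The first 2 pairs share their 21-nt tag and are not independent.

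No member was called between 0 and 4 DAT within heat (2 with an unadjusted p under 0.05) or within control (none with such a p), and DESeq2 called none in either. Among all tags, 5.45% were called within heat and 0% within control. In heat, miR1137-81-3p was 2.72-fold higher at 4 than at 0 DAT (log2 fold change 1.44 ± 0.52, edgeR FDR = 0.0856), which passed with the library totals given by the study (log2 fold change 1.83, edgeR FDR = 0.0338), and miR1135-757-5p was 2.23-fold higher (log2 fold change 1.16 ± 0.51, edgeR FDR = 0.189). A difference of the heat effect between 0 and 1 DAT or between 0 and 4 DAT was called for no member by edgeR's interaction test or by DESeq2, with 1 unadjusted p under 0.05 in each, against backgrounds of 2.48 and 0.99%. For miR1135-757-5p, control averaged 221 ± 61.8, 224 ± 147 and 190.3 ± 77.7 RPM, while heat averaged 53.3 ± 8.62, 61.7 ± 30.6 and 115 ± 58 RPM (SD, n = 4).

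Over the 3 days together, 7 members were called (background 22.3% of all tags, 11 members with an unadjusted p under 0.05). These were the 5 called at 1 DAT, miR1118-173.a-5p and miR1136-1111-3p. With the replicate number as a block 6 were called, miR1135-272-5p (FDR = 0.0647) and miR1118-173.a-5p being lost and miR1135-1184-5p gained. The calls at 0 DAT of miR1135-757-5p and miR1122-1462-3p held in all 8 fits that left out 1 library of that day. Without both libraries that stood apart, a choice made after seeing the data, 2 members stayed called at 0 DAT and none at 1 DAT, and the calls over the 3 days numbered 4. All calls at 1 DAT were also absent when control replicate 2 or control replicate 3 of that day was left out, and when the libraries of that day were fitted alone.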

How the data were processed

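Small RNA was sequenced from 24 leaf libraries. The authors prepared TruSeq libraries, sequenced each of them in several MiSeq runs, trimmed adapters, kept reads of 18 to 24 nt, checked them with FastQC, and mapped distinct tags above an abundance minimum to pre-miRNA loci of the wheat genome (IWGSC RefSeq v1.0) with Bowtie2, keeping perfect matches. For tool versions and the joining of runs, nothing was given in the sources used here. As deposited by the authors, the table holds raw read counts for each tag in each library, without normalization. Because a tag had to reach the minimum in at least 1 library and reads above 24 nt were not kept, longer small RNAs and rare 24-nt tags are not represented, and tags that differ by 1 base are counted separately.

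Groups and replicate numbers were taken from the sample labels. Members, lists and tests were chosen with earlier results of these data known. Differences were tested on the counts with edgeR 4.0.16 (R 4.3.3, limma 3.58.1) by the quasi-likelihood test in a single fit of the 6 groups, with TMM factors, no filter on low counts, Benjamini-Hochberg adjustment over 202 tags and an FDR threshold of 0.05. The common dispersion was 0.128. Changes between days and of the heat effect were contrasts of the same fit. Ratios of a 24-nt to a 21-nt tag used a pseudocount of 0.5 and exact two-sided permutation tests. Other computations used matplotlib 3.10.9, scipy 1.17.1, pandas 2.3.3 and numpy 2.4.6 in Python 3.11.15. The fit was tested on simulated data. Alternatives were edgeR's likelihood-ratio test, DESeq2 1.42.0, RLE factors, tag sums without factors, library totals given by the study, TMM without family miR166, a filter on low counts that kept 194 tags, a replicate block, libraries of the day alone and leaving out each library. Precursors and the listed orientation of the tags came from the study's supplementary list, of which only sequences and loci were used. No replicate pair agreed within sampling noise. The depth limits precision: all but 2 members averaged fewer than 40 reads per library.

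Values in every library are given for members at FDR < 0.05 in any contrast and for the most abundant member of each family. Other members are given by range, and those named beyond this rule were chosen after their values were seen. Libraries of a treatment with the same number were taken to hold the same plants on all days. The study describes a completely randomized design and no blocks that would link heat to control libraries of the same number. Over the 122 tags with a mean count of at least 20, deviations of same-numbered heat and control libraries from their group means correlated with r of 0.306, 0.566, 0.240 and 0.323 at 1 DAT, all above 0.1, the limit set for pairing. All values given are from the fit without a block unless a block is named, the ratio tests were unpaired, and blocked values are given where the block changed a call. At 0 and 4 DAT the lowest r was -0.119 and -0.169.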

Additional observations from a re-analysis of the deposited data

How the results depend on the processing

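With few reads per tag, the smallest change called on a single day was 2.15-fold, that of miR1135-272-5p at 1 DAT. Of the counts of called members, those at 4 DAT, those of tags higher in heat, those of the change between days within control and those of the change of the heat effect stayed at 0 in every alternative. Without scaling factors, 1 member was lower at 0 DAT, 0 at 1 DAT and 3 were called over the 3 days. With the library totals given by the study, 3 were lower at 1 DAT, 4 were called over the 3 days and 1 changed from 0 to 4 DAT in heat. These are the scalings that moved the median of all tags by more than 0.1. At 4 DAT it was a log2 fold change of -0.24 without factors and 0.12 with the study's totals. Without factors it was 0.09 at 0 DAT, and with the study's totals 0.14 at 1 DAT, against -0.04 and -0.12 in the main test. The median of the members lay below that of all tags by 0.16 to 0.45 in each alternative that kept all libraries. Without scaling factors 18 of the 30 members were below 0 at 0 DAT, and with the study's totals 23 were at 1 DAT, against 26 and 30. With the libraries of the day alone, 0 were lower at 1 DAT. With the likelihood-ratio test, 4 members were lower at 0 DAT and 6 at 1 DAT. Over the fits that left out 1 library, 2 to 3 members were lower at 0 DAT, 0 to 8 at 1 DAT and 3 to 9 were called over the 3 days. At 1 DAT the count was 0 without control replicate 2 or 3, 1 without heat replicate 3, 3 without heat replicate 4 and 8 without control replicate 4 of that day, and over the 3 days it was 3 without control 1 DAT replicate 3 and 4 without heat 1 DAT replicate 3. Without heat 0 DAT replicate 1 and control 1 DAT replicate 3 together, chosen after seeing the data, 0 were lower at 1 DAT and 4 were called over the 3 days. The cause of these differences was not tested. With the replicate number as a block, 3 members were lower at 0 DAT and 5 at 1 DAT, and 6 were called over the 3 days. At 1 DAT the block removed the call of miR1135-272-5p and added that of miR1136-1111-3p. Over the 3 days it removed those of miR1135-272-5p (FDR = 0.0647) and miR1118-173.a-5p (FDR = 0.0916) and added that of miR1135-1184-5p (FDR = 0.0342). Among the single-day values of members given by library, and the other counts of members, it changed no other call. Among all tags the share of lower calls at 1 DAT was 43.5% (10 of 23) in the main test, 31.6% with RLE factors, 16.0% with the study's totals and 0% without factors. Of the calls of single members, that of miR1135-757-5p at 0 DAT was kept in all 10 other ways of fitting or choosing libraries, with an FDR of 0.00102 to 0.0491. A pseudocount of 1 changed no call of the ratios.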
